A study of Arabidopsis thaliana with 36 samples.

Results

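Leaves of the Arabidopsis thaliana mutant ivd1-2 after 72 h of darkness were compared with leaves of the same mutant kept for those 72 h in the day and night cycle. The genotype and condition labels put 4 of the 36 libraries of the series in this comparison: 2 from ivd1-2 dark leaves and 2 from ivd1-2 light leaves, where "light" stands for the cycle of 8 h of light and 16 h of dark in which all plants had grown on soil for 5 weeks. RNA from rosette leaves 9 to 12 was made into stranded libraries and sequenced, and the deposited values are raw read counts per gene. The line ivd1-2 is named for IVD, the gene of isovaleryl-CoA dehydrogenase, and the labels do not describe the lesion. Further groups under the same 2 conditions, with 2 libraries each, were used only to test whether a change in ivd1-2 differed: the Columbia wild type (WT, stock CS60000) and hml1-2, a line named for hydroxymethylglutaryl-CoA lyase. Neither separate plants for the 2 libraries of a group nor an hour of harvest is stated in the labels. The p-values therefore cover only the spread between the 2 libraries of a group, pooled over 18 groups, and this spread may be technical. They assume that all groups vary alike. The part of the hour of harvest in any change was not tested.

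A leaf kept in darkness can make no sugar. After its starch is used up, it respires protein and lipid, and amino acids become fuel. Leucine, valine and isoleucine are first stripped of their amino group by branched-chain aminotransferases, then oxidised by the branched-chain ketoacid dehydrogenase complex in mitochondria. IVD takes the next step of the leucine branch, methylcrotonyl-CoA carboxylase (subunits MCCA and MCCB) a later one, and the lyase HML1 releases acetyl-CoA and acetoacetate at the end. IVD and D2HGDH, which oxidises a product of lysine breakdown, hand electrons to the electron transfer flavoprotein (ETFA and ETFB), and its oxidoreductase ETFQO passes them to ubiquinone, so that these amino acids feed the respiratory chain directly.

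The ivd1-2 dark libraries held 31890936 counts in replicate 1 and 29029172 in replicate 2, and the light libraries held 33786422 in replicate 1 and 24315937 in replicate 2. Of the 19457 genes tested, 6174 rose in dark leaves (31.7%) and 6239 fell (32.1%), so that 63.8% passed edgeR's quasi-likelihood test at an adjusted p under 0.05, and the median log2 change over all genes was 0.01. These shares are the background for every count below: a group of which about 32% rose did what genes at large did. Levels are counts scaled to the size of the library by TMM (CPM), changes are log2 dark over light with their standard error (SE), and in each pair of values replicate 1 comes first. In such bulk samples, fewer cells of a type and less RNA per cell cannot be told apart.

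The 2 dark libraries did not resemble each other as the libraries of other groups did. Across genes, which are no independent points, their log2 CPM correlated with a Pearson r of 0.884, against 0.983 for the ivd1-2 light libraries and at least 0.931 in the other groups. The median absolute difference between the 2 libraries was 0.69 on the log2 scale in dark leaves, against 0.23 in light leaves. Both dark libraries lay above both light libraries for 6629 genes (34.1%) and below both for 7560 genes (38.9%). For 1529 genes replicate 1 lay above and replicate 2 below both light libraries, and for 1284 genes the reverse held. With dark replicate 1 as the only dark library, 5734 genes rose (29.5%) and 6664 fell (34.2%). With dark replicate 2 as the only dark library, 5744 rose (29.5%) and 5632 fell (28.9%). Genes that rose in both of these fits numbered 4072, genes that fell in both 4563, genes that rose with replicate 1 and fell with replicate 2 179, and genes that did the reverse 46. In these fits the lone dark library is assumed to vary like the other groups. The fit with both dark libraries also pools the spread over all groups, although this pair was the least alike. By over 1 on the log2 scale, 3069 of the 19457 genes were higher in replicate 1 and 3361 in replicate 2. These counts are the background for each such count of list members below. Results below are therefore given library by library.

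**Figure D1:**
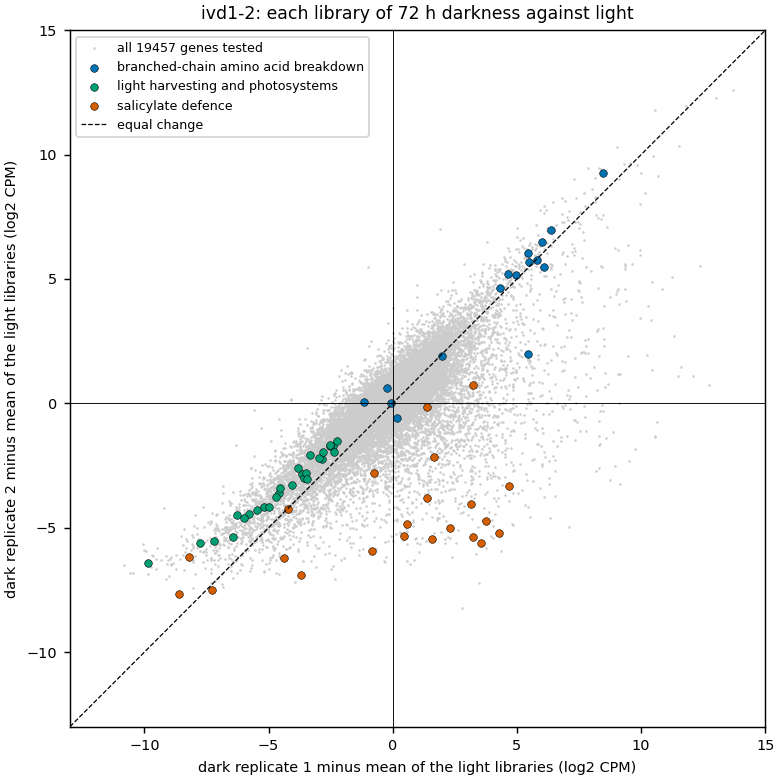
Change of every tested gene in ivd1-2, with dark replicate 1 minus the mean of the 2 light libraries (log2 CPM) on one axis and dark replicate 2 minus the same mean on the other; points are genes, colours mark the lists named in the legend, and the line marks equal change. Of the 19457 genes, 3069 were higher in replicate 1 and 3361 in replicate 2 by over 1 on the log2 scale. Salicylate defence genes stand off the line, with a median of 1.38 in replicate 1 and -5.12 in replicate 2.

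The gene named by the line rose strongly in darkness. IVD (AT3G45300, chromosome 3) had 299.6 and 454 CPM in dark leaves, against 2.23 and 5.60 CPM in light leaves (log2 6.60, SE 0.41, adjusted p = 5.1e-11). Both dark libraries lay above both light libraries. In WT the gene had 2048 and 2026 CPM in WT dark leaves, against 14.4 and 18.8 CPM in WT light leaves. In hml1-2 it had 2419 and 2039 CPM in hml1-2 dark leaves, against 17.7 and 20.1 CPM in hml1-2 light leaves. All 4 ivd1-2 values lay below those of the other genotypes in the same condition, and the size of the rise in ivd1-2 did not pass as different from that in WT (log2 -0.34, SE 0.47, adjusted p = 0.732) or in hml1-2 (log2 -0.29, SE 0.47, adjusted p = 0.797). HML1 (AT2G26800, chromosome 2) had 89.4 and 94.8 CPM in dark leaves, against 88.1 and 98.5 CPM in light leaves (log2 -0.02, SE 0.15, adjusted p = 0.921). The 2 dark values lay within the range of the light values of 88.1 and 98.5 CPM.

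Breakdown of branched-chain amino acids held the highest list median of the 31 gene lists. Of its 16 members 12 rose and none fell, with a median log2 of 5.01, and the median was 5.20 in dark replicate 1 and 5.18 in dark replicate 2. The first enzyme of the pathway, the mitochondrial aminotransferase BCAT2, had 1341 and 2310.3 CPM in dark leaves, against 3.46 and 3.96 CPM in light leaves (log2 8.94, SE 1.05, adjusted p = 2.55e-07). Subunits of the ketoacid dehydrogenase complex followed. DIN4 (AT3G13450), a beta subunit of its decarboxylase, had 946 and 938 CPM in dark leaves, against 15.3 and 19.1 CPM in light leaves (log2 5.78, SE 0.33, adjusted p = 1.46e-11). The other beta subunit gene, E1B1 (AT1G55510), had 540.2 and 354 CPM in dark leaves, against 7.93 and 7.76 CPM in light leaves (log2 5.83, SE 0.34, adjusted p = 1.85e-11). The alpha subunit E1A1 (log2 5.58, SE 0.42) and the acyltransferase BCE2 (log2 5.08, SE 0.51) rose by similar amounts, and the second alpha subunit gene, E1A2, stayed under 1 CPM in all 4 libraries and did not pass. The carboxylase subunits rose as well: MCCA had 2726 and 3742 CPM in dark leaves, against 34.7 and 50.1 CPM in light leaves, and MCCB had 1144 and 1709 CPM in dark leaves, against 43.4 and 49.6 CPM in light leaves. In the valine branch, HDH1 (AT4G20930), the hydroxyisobutyrate dehydrogenase, had 89.3 and 111 CPM in dark leaves, against 3.57 and 5.52 CPM in light leaves (log2 4.47, SE 0.25, adjusted p = 1.27e-11), and ALDH6B2, the methylmalonate semialdehyde dehydrogenase, rose by log2 5.75. The 4 members that did not pass were HML1, E1A2 and the hydrolases CHY1 and CHY4.

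A second mitochondrial aminotransferase separated the dark libraries. BCAT1 (AT1G10060) had 221 and 20.4 CPM in dark leaves, against 5.37 and 4.78 CPM in light leaves (log2 4.57, SE 0.71, adjusted p = 1.1e-05). Dark replicate 1 was far above dark replicate 2, and both lay above the light libraries. This was the only one of the 16 members that was higher in replicate 1 by over 1 on the log2 scale.

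All 6 genes of the electron transfer flavoprotein pathway and of lysine breakdown rose, with a median log2 of 3.73. The largest change was that of LKR/SDH (AT4G33150), the bifunctional enzyme that opens lysine breakdown, which had 6553 and 8233 CPM in dark leaves, against 6.84 and 15.3 CPM in light leaves (log2 9.39, SE 0.66, adjusted p = 2.04e-10). ALDH7B4 (AT1G54100), an aldehyde dehydrogenase of lysine breakdown, had 2841 and 3071.8 CPM in dark leaves, against 38.2 and 45.6 CPM in light leaves (log2 6.14, SE 0.33, adjusted p = 9.37e-12). ETFQO (AT2G43400) had 831 and 815 CPM in dark leaves, against 22.7 and 24.1 CPM in light leaves (log2 5.13, SE 0.30, adjusted p = 2.26e-11). In each of these genes the dark libraries were close to each other and far above the light libraries. D2HGDH rose by log2 1.59, SE 0.17, ETFB by 2.32, SE 0.20 and ETFA by 0.60, SE 0.20.

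Of 20 genes of other amino acid breakdown 16 rose, 3 fell and 1 did not pass, with a median log2 of 3.56. Threonine aldolase, THA1 (AT1G08630), had 1271 and 1388 CPM in dark leaves, against 0.191 and 0.41 CPM in light leaves (log2 12.15, SE 1.41, adjusted p = 2.38e-07), the fourth largest rise among the genes named by size. Tyrosine breakdown rose through HPD (AT1G06570), the hydroxyphenylpyruvate dioxygenase, with 1292 and 1872 CPM in dark leaves, against 70.7 and 90.7 CPM in light leaves (log2 4.29, SE 0.28, adjusted p = 7.84e-11), and HGO (AT5G54080), the homogentisate dioxygenase, with 3763 and 3656 CPM in dark leaves, against 36.1 and 57.9 CPM in light leaves (log2 6.30, SE 0.38, adjusted p = 3.3e-11). ETHE1 (AT1G53580), a mitochondrial sulfur dioxygenase of cysteine breakdown, had 664 and 661 CPM in dark leaves, against 34.6 and 41.4 CPM in light leaves (log2 4.12, SE 0.23, adjusted p = 1.07e-11). Both dark libraries gave nearly the same value for it. MGL, the methionine gamma-lyase, rose by log2 7.23, SE 0.50, and GDH2, a glutamate dehydrogenase subunit, by 7.25, SE 0.56. The 2 proline dehydrogenase genes behaved differently: PRODH1 had 2192 and 2902 CPM in dark leaves, against 30.5 and 36.8 CPM in light leaves, while PRODH2 had 501 and 4.03 CPM in dark leaves, against 2.81 and 4.59 CPM in light leaves, so that only replicate 1 lay above the light libraries for PRODH2. The 3 members that fell were GDH3, the arginase ARGAH2 and the glutamate decarboxylase GAD2, which had 38.7 and 77.6 CPM in dark leaves, against 332 and 279 CPM in light leaves.

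Synthesis of branched-chain amino acids moved in both directions. Of 12 genes tested, 3 rose and 7 fell, with 2 not passing and a median log2 of -0.96. The entry step of the pathway lay among those that rose: AHAS, the catalytic subunit of acetohydroxyacid synthase, had 934 and 2362 CPM in dark leaves, against 621 and 709 CPM in light leaves (log2 1.31, SE 0.38, adjusted p = 0.00504), and VAT1 (AT2G31810), its regulatory subunit, had 450.2 and 637 CPM in dark leaves, against 117 and 161 CPM in light leaves (log2 1.97, SE 0.25, adjusted p = 9.04e-07). IPMS1 (AT1G18500), the isopropylmalate synthase that opens the leucine branch, had 108 and 143 CPM in dark leaves, against 55.9 and 48.01 CPM in light leaves (log2 1.27, SE 0.18, adjusted p = 2.26e-06), and its paralog IPMS2 fell (log2 -1.45, SE 0.25). The isopropylmalate dehydrogenases all fell, as in IMDH3 (AT1G31180), which had 4.21 and 8.45 CPM in dark leaves, against 20.7 and 20.3 CPM in light leaves (log2 -1.70, SE 0.28, adjusted p = 2.36e-05).

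Most genes of nitrogen assimilation fell. Among 14 there were 3 rises and 8 falls, with 3 not passing and a median log2 of -1.39. GLN2 (AT5G35630), the plastid glutamine synthetase, had 15.95 and 46.01 CPM in dark leaves, against 2035 and 2405 CPM in light leaves (log2 -6.16, SE 0.44, adjusted p = 2.57e-10). GLU1 (AT5G04140), the ferredoxin-dependent glutamate synthase, had 46.4 and 66.1 CPM in dark leaves, against 2027 and 2529.9 CPM in light leaves (log2 -5.34, SE 0.45, adjusted p = 2.86e-09), and NIR1 (AT2G15620), the nitrite reductase, had 12.5 and 15.8 CPM in dark leaves, against 205 and 244 CPM in light leaves (log2 -3.98, SE 0.26, adjusted p = 7.45e-11). These genes lay far below both light libraries in both dark libraries. ASN1, the asparagine synthetase known to be induced by darkness, had 16293 and 15575 CPM in dark leaves, against 52.9 and 61.2 CPM in light leaves (log2 8.13, SE 1.35, adjusted p = 2.44e-05), and ASN2, which is induced by light, had 1.38 and 4.88 CPM in dark leaves, against 303 and 492 CPM in light leaves (log2 -6.99, SE 0.87, adjusted p = 5.56e-07).

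**Figure D2:**
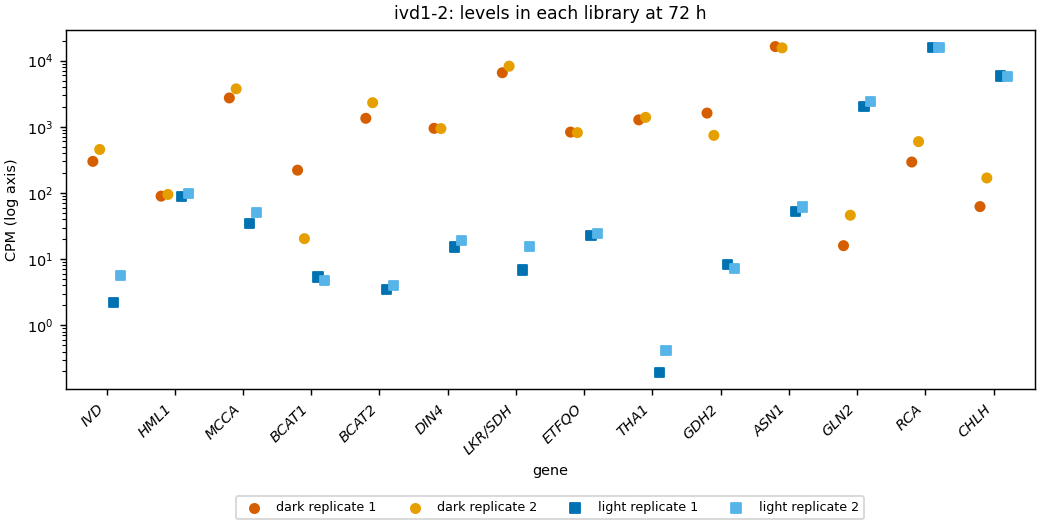
CPM on the TMM scale (log axis) of selected genes in each of the 2 dark and 2 light ivd1-2 libraries; each point is a library, with dark leaves left of light leaves. For IVD the dark values were 299.6 and 454 CPM and the light values 2.23 and 5.60 CPM; the genes shown were picked after their values were seen.

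Genes of the dark and sugar starvation response rose almost without exception, 17 of 18 tested, with a median log2 of 4.41. DIN2 (AT3G60140), a beta-glucosidase first described as dark-inducible, had 4705 and 2198 CPM in dark leaves, against 0.0817 and 0.783 CPM in light leaves (log2 13.06, SE 2.14, adjusted p = 2.02e-05), and was the largest rise named. TPS11 (AT2G18700), a trehalose phosphate synthase family member, had 1236 and 1089 CPM in dark leaves, against 179 and 163 CPM in light leaves (log2 2.76, SE 0.18, adjusted p = 6.55e-11), and its relative TPS10 rose by log2 2.30, SE 0.15. DRM1 (AT1G28330), a dormancy-associated protein, had 712 and 1279 CPM in dark leaves, against 9.86 and 9.07 CPM in light leaves (log2 6.72, SE 0.43, adjusted p = 6.79e-11). SEN1, a senescence-associated gene of dark leaves, had 7030.1 and 11719.9 CPM in dark leaves, against 18.6 and 60.5 CPM in light leaves. By over 1 on the log2 scale, 5 members were higher in replicate 1 and 1 in replicate 2. DIN9, a phosphomannose isomerase, had 393 and 54.9 CPM in dark leaves, against 2.97 and 3.47 CPM in light leaves (log2 6.12, SE 0.72, adjusted p = 2.54e-07), and DIN11 (AT3G49620), a member of the oxoglutarate-dependent dioxygenase family, had 558 and 0.0775 CPM in dark leaves, against 0.545 and 0.149 CPM in light leaves. For DIN11 replicate 1 lay above and replicate 2 below both light libraries, and for DIN9 both dark libraries lay above both light libraries. The member that did not pass was BZIP63, a bZIP factor, with 121 and 42.4 CPM in dark leaves, against 112 and 92.1 CPM in light leaves, where replicate 1 lay above and replicate 2 below both light libraries.

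The clock genes moved in both directions. Of 16 genes 11 rose and 5 fell, and the dark libraries lay within 1 log2 unit of each other except for LHY. The 5 that fell were the morning factors CCA1, LHY and RVE8 and their partners LNK1 and LNK2. PRR9 and PRR7, which repress CCA1 and LHY, rose. LHY had 6.27 and 25.1 CPM in dark leaves, against 1001 and 1271 CPM in light leaves (log2 -6.18, SE 0.76, adjusted p = 4.93e-07). PRR5 (AT5G24470), a pseudo-response regulator that represses morning genes, had 42.8 and 47.5 CPM in dark leaves, against 0.136 and 0.186 CPM in light leaves (log2 8.12, SE 0.54, adjusted p = 9.88e-11). PRR3 (AT5G60100) had 42.3 and 78.8 CPM in dark leaves, against 0.0545 and 0.112 CPM in light leaves (log2 9.50, SE 0.65, adjusted p = 1.34e-10), and ELF3 (AT2G25930), a subunit of the evening complex, had 146 and 167 CPM in dark leaves, against 8.31 and 11.3 CPM in light leaves (log2 4.001, SE 0.27, adjusted p = 1.58e-10). GI, which acts in the evening, had 104 and 157 CPM in dark leaves, against 0.3 and 0.373 CPM in light leaves. Since the labels state no hour of harvest, prolonged darkness and a difference in that hour cannot be told apart for these genes.

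Light signalling factors were mixed, with 4 risen, 8 fallen and 4 not passing of 16 (median log2 -0.90, or -0.48 with ELIP2, which had no counts in dark leaves, at the bound that a floor of 3 counts over the group sets). HYH (AT3G17609), a bZIP factor that promotes light responses, had 0.27 and 0.698 CPM in dark leaves, against 36.9 and 50.6 CPM in light leaves (log2 -6.51, SE 0.56, adjusted p = 3.45e-09). GLK1 (AT2G20570), a factor for photosynthesis genes, had 72.6 and 62.95 CPM in dark leaves, against 235 and 248 CPM in light leaves (log2 -1.83, SE 0.20, adjusted p = 1.17e-07), and COP1 (AT2G32950), the ubiquitin ligase that degrades light-response factors, had 8.33 and 12.8 CPM in dark leaves, against 34.8 and 35.8 CPM in light leaves (log2 -1.74, SE 0.19, adjusted p = 8.37e-08). PHYA, the photoreceptor of far-red light, had 661 and 1229.5 CPM in dark leaves, against 199.5 and 191 CPM in light leaves (log2 2.28, SE 0.31, adjusted p = 1.66e-06).

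The photosynthetic apparatus fell as a block in both dark libraries. All 28 genes of light harvesting and photosystems fell, with a median log2 of -3.44, and the fall was deeper in replicate 1 (-3.95) than in replicate 2 (-3.15). PSAK (AT1G30380), a photosystem I subunit, had 23.3 and 49.4 CPM in dark leaves, against 2129 and 1937 CPM in light leaves (log2 -5.81, SE 0.39, adjusted p = 1.22e-10). PSBW (AT2G30570), a small photosystem II subunit, had 83.3 and 159 CPM in dark leaves, against 2370.3 and 2022 CPM in light leaves (log2 -4.18, SE 0.28, adjusted p = 1.08e-10), and LHCB3 (AT5G54270), a chlorophyll-binding antenna protein, had 47.6 and 154 CPM in dark leaves, against 7532 and 6611 CPM in light leaves (log2 -6.13, SE 0.45, adjusted p = 4.11e-10). The sum over the 28 genes was 7560 and 13727 CPM in dark leaves, against 105577 and 91985 CPM in light leaves. PSBS, the protein that switches on heat dissipation of excess light, had the deepest fall of the list, with 1.58 and 18.2 CPM in dark leaves, against 1552 and 1555 CPM in light leaves (log2 -7.30, SE 0.90, adjusted p = 4.96e-07).

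Calvin cycle genes fell in 15 of 16 cases (median log2 -3.59). RCA (AT2G39730), the activase of Rubisco, had 293 and 596 CPM in dark leaves, against 15814 and 15792 CPM in light leaves (log2 -5.15, SE 0.35, adjusted p = 1.21e-10). TKL1 (AT3G60750), a transketolase, had 149 and 207 CPM in dark leaves, against 1182 and 1236 CPM in light leaves (log2 -2.77, SE 0.18, adjusted p = 6.81e-11), and RPE (AT5G61410), the ribulose phosphate epimerase, had 156 and 169 CPM in dark leaves, against 834 and 829 CPM in light leaves (log2 -2.36, SE 0.16, adjusted p = 1.34e-10). CP12-1, a small protein that holds a pair of the cycle's enzymes in an inactive complex in the dark, did not pass, with 457 and 787 CPM in dark leaves, against 748 and 744 CPM in light leaves. Of 19 genes of chlorophyll synthesis 18 fell (median log2 -3.80). HEMA1 (AT1G58290), the glutamyl-tRNA reductase at the start of the pathway, had 43.4 and 79.2 CPM in dark leaves, against 1316 and 1443 CPM in light leaves (log2 -4.49, SE 0.28, adjusted p = 5.27e-11), CAO (AT1G44446), which makes chlorophyll b, had 36.2 and 59.3 CPM in dark leaves, against 778 and 818 CPM in light leaves (log2 -4.06, SE 0.27, adjusted p = 8.25e-11), and GSA1 (AT5G63570) fell by log2 -2.42, SE 0.17. The 1 gene that rose was PORA, the protochlorophyllide reductase of dark-grown seedlings, with 2.29 and 4.88 CPM in dark leaves, against 0.409 and 0.671 CPM in light leaves.

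Chlorophyll breakdown ran the other way, with 6 of 8 genes risen and 1 fallen (median log2 2.45). NYC1 (AT4G13250), a chlorophyll b reductase, had 1229 and 849 CPM in dark leaves, against 45.4 and 81.4 CPM in light leaves (log2 4.04, SE 0.41, adjusted p = 3.73e-08). PPH (AT5G13800), the pheophytinase, had 608 and 448 CPM in dark leaves, against 46.2 and 66.7 CPM in light leaves (log2 3.23, SE 0.34, adjusted p = 6.5e-08), and HCAR (AT1G04620), which completes the reduction of chlorophyll b, had 118 and 222 CPM in dark leaves, against 20.4 and 29.2 CPM in light leaves (log2 2.78, SE 0.34, adjusted p = 4.22e-07). The gene that fell was RCCR (log2 -0.45, SE 0.17), the red chlorophyll catabolite reductase.

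**Figure D3:**
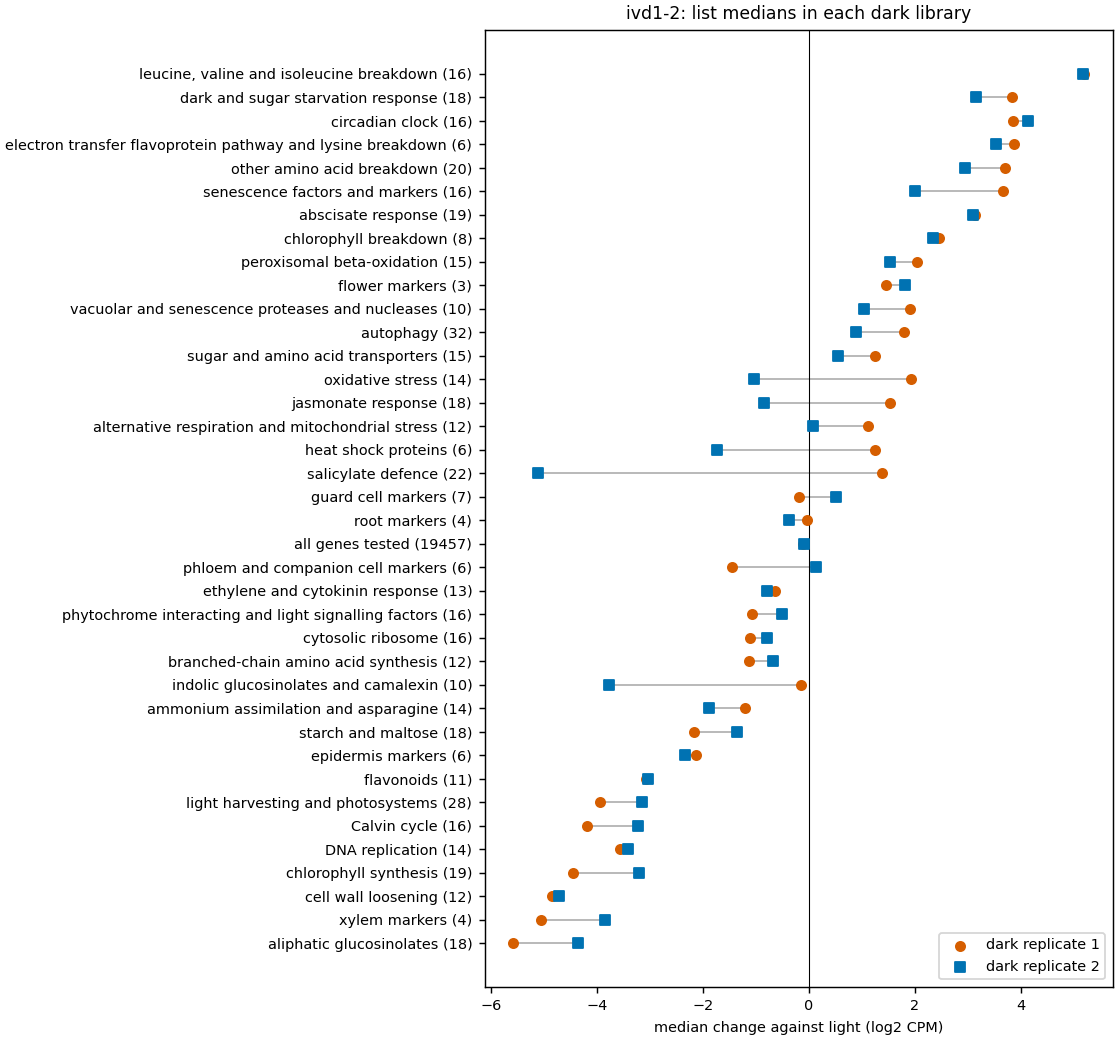
Median change against light (log2 CPM, dark library minus the mean of the 2 light libraries) of each gene and marker list in ivd1-2, with dark replicate 1 as circles and dark replicate 2 as squares; the number of tested members is in brackets. Leucine, valine and isoleucine breakdown stood at 5.20 in replicate 1 and 5.18 in replicate 2, and salicylate defence at 1.38 in replicate 1 and -5.12 in replicate 2.

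Senescence genes rose in 11 of 16 cases and none fell, with a median of 3.66 in dark replicate 1 and 2.00 in dark replicate 2. EIN3 (AT3G20770), the main factor of ethylene signalling, had 827 and 856 CPM in dark leaves, against 199.5 and 207 CPM in light leaves (log2 2.05, SE 0.16, adjusted p = 9.48e-10), and WRKY22 (AT4G01250), a WRKY factor of dark senescence, had 40.05 and 43.2 CPM in dark leaves, against 5.67 and 4.74 CPM in light leaves (log2 2.998, SE 0.36, adjusted p = 3.64e-07). These 2 genes were alike in both dark libraries. SAG20 (AT3G10985) had 586 and 345 CPM in dark leaves, against 27.6 and 31.7 CPM in light leaves (log2 3.97, SE 0.39, adjusted p = 2.02e-08). Of the 16 members 10 were higher in replicate 1 by over 1 on the log2 scale, against 3069 of all 19457 genes. WRKY75 was the most uneven of those that rose, with 327 and 3.88 CPM in dark leaves, against 1.47 and 0.634 CPM in light leaves. SAG12, the cysteine protease that marks late senescence, and SAG29 did not pass the filter on low counts.

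Proteases and nucleases of the vacuole rose in 6 of 10 cases and fell in 1 (median log2 1.58). RD19 (AT4G39090), a cysteine protease, had 972 and 1088 CPM in dark leaves, against 129 and 132 CPM in light leaves (log2 2.98, SE 0.23, adjusted p = 8.43e-10), AALP (AT5G60360), another of that family, had 1616 and 1769 CPM in dark leaves, against 475 and 528 CPM in light leaves (log2 1.75, SE 0.27, adjusted p = 9.16e-06), and GAMMA-VPE (AT4G32940), a vacuolar processing enzyme, had 842 and 1096 CPM in dark leaves, against 92.5 and 147 CPM in light leaves (log2 3.02, SE 0.49, adjusted p = 2.03e-05). Autophagy, which carries cytoplasm and organelles to the vacuole, rose in 29 of 32 genes and fell in 1 (median log2 1.52). ATG13A (AT3G49590), of the kinase complex that starts autophagosomes, had 143 and 128 CPM in dark leaves, against 28.8 and 30.1 CPM in light leaves (log2 2.201, SE 0.13, adjusted p = 3.3e-11). ATG8B (AT4G04620), a ubiquitin-like protein of the autophagosome membrane, had 289 and 473 CPM in dark leaves, against 8.66 and 9.89 CPM in light leaves (log2 5.36, SE 0.40, adjusted p = 4.58e-10), and ATG4A (AT2G44140), the protease that processes ATG8, rose by log2 1.69, SE 0.14. The list median was 1.80 in replicate 1 and 0.90 in replicate 2. ATG7, the activating enzyme of the conjugation systems, had 145 and 16.3 CPM in dark leaves, against 11.9 and 13.2 CPM in light leaves, and its replicate 2 lay close to the light libraries. ATG5 was the member that fell (log2 -1.11, SE 0.29).

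Of 15 genes of peroxisomal beta-oxidation 10 rose and 2 fell (median log2 1.79). ACX4 (AT3G51840), the short-chain acyl-CoA oxidase, had 1711 and 1242 CPM in dark leaves, against 168 and 200.4 CPM in light leaves (log2 3.004, SE 0.21, adjusted p = 1.69e-10), CSY2 (AT3G58750), a peroxisomal citrate synthase, had 497 and 293 CPM in dark leaves, against 26.4 and 26.8 CPM in light leaves (log2 3.89, SE 0.27, adjusted p = 2.24e-10), and PMDH2 (AT5G09660), a peroxisomal malate dehydrogenase, had 90.4 and 160.1 CPM in dark leaves, against 1264 and 1244 CPM in light leaves (log2 -3.32, SE 0.24, adjusted p = 2.6e-10). Of 18 genes of starch and maltose 6 rose and 10 fell (median log2 -1.73). BAM3 (AT4G17090), the main leaf beta-amylase, had 21.9 and 14.4 CPM in dark leaves, against 1007 and 1267 CPM in light leaves (log2 -5.97, SE 0.33, adjusted p = 1.02e-11). GBSS1 (AT1G32900), the granule-bound starch synthase, had 10.96 and 22.4 CPM in dark leaves, against 425 and 568 CPM in light leaves (log2 -4.89, SE 0.40, adjusted p = 1.62e-09), and SS2 (AT3G01180), a soluble starch synthase, fell by log2 -2.07, SE 0.21. The debranching enzyme ISA3 rose (log2 2.54, SE 0.29), as did the dikinase PWD (log2 2.31, SE 0.24).

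Abscisate response genes rose in 16 of 19 cases and fell in 1, with a median of 3.15 in replicate 1 and 3.10 in replicate 2, while 2 members were higher in replicate 1 and 5 in replicate 2 by over 1 on the log2 scale. COR47 (AT1G20440), a dehydrin, had 1627 and 2340.4 CPM in dark leaves, against 46.2 and 33.6 CPM in light leaves (log2 5.63, SE 0.33, adjusted p = 1.96e-11). RD29A (AT5G52310), a gene of drought and cold, had 127 and 163 CPM in dark leaves, against 4.005 and 3.32 CPM in light leaves (log2 5.30, SE 0.43, adjusted p = 1.47e-09), and RD26 (AT4G27410), a NAC factor, had 239 and 172 CPM in dark leaves, against 13.6 and 13.9 CPM in light leaves (log2 3.90, SE 0.31, adjusted p = 1.47e-09). The gene that fell was RD22, with 295 and 243 CPM in dark leaves, against 860.1 and 598 CPM in light leaves.

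Jasmonate response genes rose in 8 of 18 cases and fell in 2, and 5 of the 8 rises were larger in dark replicate 1 by over 1 on the log2 scale. JAZ2 (AT1G74950), a repressor of jasmonate signalling, had 70.6 and 43.4 CPM in dark leaves, against 11.9 and 10.8 CPM in light leaves (log2 2.32, SE 0.26, adjusted p = 1.08e-07), and JAZ9 (AT1G70700), of the same family, had 261 and 163 CPM in dark leaves, against 70.3 and 77.3 CPM in light leaves (log2 1.52, SE 0.26, adjusted p = 2.69e-05). These rose in both dark libraries. JAZ7 (AT2G34600) had 32.8 and 4.15 CPM in dark leaves, against 0.218 and 0.112 CPM in light leaves (log2 6.73, SE 1.09, adjusted p = 1.69e-05), and JAZ1 had 234 and 4.92 CPM in dark leaves, against 6.40 and 3.62 CPM in light leaves. LOX2, the lipoxygenase that feeds jasmonate synthesis, fell, with 16.3 and 16.4 CPM in dark leaves, against 262 and 126 CPM in light leaves (log2 -3.56, SE 1.01, adjusted p = 0.00428). The list median was 1.54 in replicate 1 and -0.85 in replicate 2.

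Salicylate defence had the widest gap between the medians of the dark libraries among the gene lists. Among 22 genes there were 1 rise and 4 falls, with 17 not passing and a median log2 of 0.47, and 18 of the 22 were higher in dark replicate 1 by over 1 on the log2 scale. With replicate 1 as the only dark library 5 rose and 1 fell, and with replicate 2 as the only one none rose and 7 fell. ICS1 (AT1G74710), the isochorismate synthase that begins salicylate synthesis, had 1028 and 2.83 CPM in dark leaves, against 50.2 and 115 CPM in light leaves. PBS3, which conjugates isochorismate to glutamate, had 749 and 0.969 CPM in dark leaves, against 22.6 and 65.4 CPM in light leaves. FMO1, the oxygenase that makes N-hydroxypipecolate, had 147 and 0.31 CPM in dark leaves, against 13.6 and 17.9 CPM in light leaves, and PAD4, a lipase-like regulator of this defence, had 235 and 1.71 CPM in dark leaves, against 59.3 and 102 CPM in light leaves. In each of these 4 genes replicate 1 lay above and replicate 2 below both light libraries, and none passed.

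Other members of the list were low in both dark libraries. PR2 (AT3G57260), a beta-glucanase, had 0.27 and 0.582 CPM in dark leaves, against 137 and 124 CPM in light leaves (log2 -8.27, SE 3.10, adjusted p = 0.0249), and the call was lost without either dark library (adjusted p = 0.122 without replicate 1 and 0.096 without replicate 2). PR5 (AT1G75040), the thaumatin-like protein, had 0.674 and 0.582 CPM in dark leaves, against 125 and 109 CPM in light leaves (log2 -7.53, SE 2.15, adjusted p = 0.00451). AED1 (AT5G10760), an aspartyl protease, had 0.101 and 0.62 CPM in dark leaves, against 44.4 and 56.8 CPM in light leaves (log2 -7.16, SE 2.43, adjusted p = 0.0141), with an adjusted p of 0.0941 without replicate 1 and 0.0514 without replicate 2. PR1, the classical marker of salicylate, had 2.02 and 0.504 CPM in dark leaves, against 23.7 and 77.9 CPM in light leaves and did not pass. For all 4 genes both dark libraries lay below both light libraries, and of the 4 only PR1 was higher in replicate 1 by over 1 on the log2 scale. The mean of the list was 4.60 log2 CPM in dark replicate 1 and 0.10 in dark replicate 2, against 4.48 and 4.97 in the light libraries. In WT it was 1.07 and -0.47 in dark leaves, against 1.31 and 0.44 in light leaves. In hml1-2 it was 1.36 and just under 0 in dark leaves, against 4.66 and 0.53 in light leaves. Both ivd1-2 light libraries lay above both WT light libraries, and hml1-2 light replicate 1 was as high as they were.

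**Figure D4:**
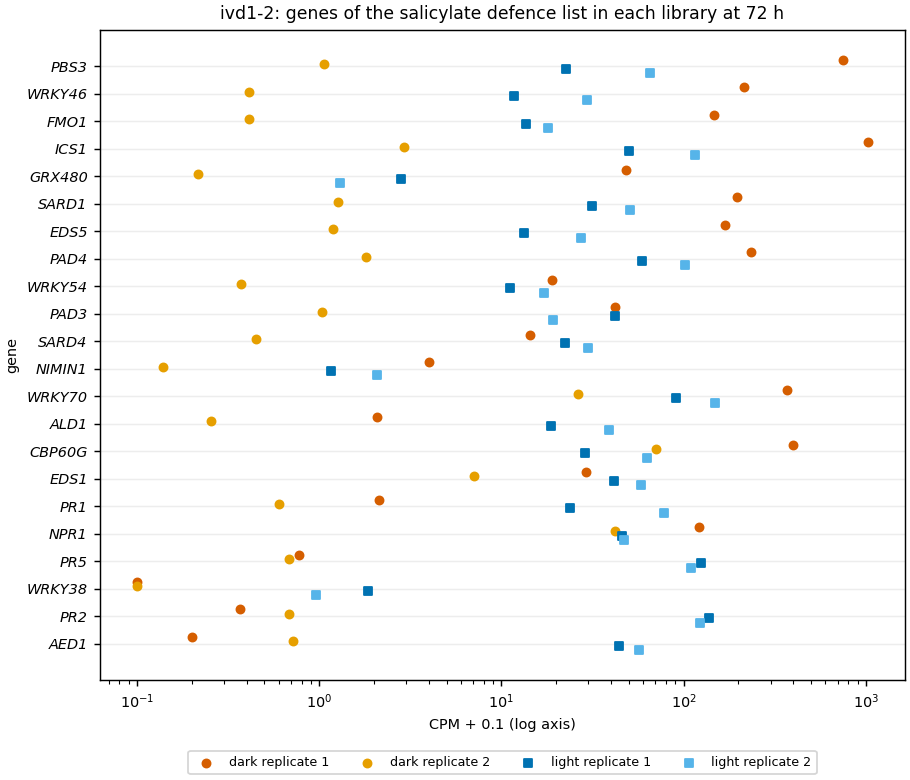
CPM on the TMM scale plus 0.1 (log axis) of each of the 22 salicylate defence genes, 1 per row, in the 2 dark and 2 light ivd1-2 libraries; each point is a library, with dark leaves as circles and light leaves as squares just beneath them. ICS1 had 1028 CPM in dark replicate 1 and 2.83 CPM in dark replicate 2, while PR5 had 0.674 and 0.582 CPM.

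Of 18 genes of aliphatic glucosinolates, sulfur compounds of defence, 17 fell, with a median log2 of -6.12 (-5.46 with GSTF11 and MYB76, which had no counts in dark leaves, at their bound). MYB28 (AT5G61420), the factor that switches on this pathway, had 0.0337 and 0.388 CPM in dark leaves, against 25.8 and 38.05 CPM in light leaves (log2 -7.27, SE 0.69, adjusted p = 1.29e-08). UGT74C1 (AT2G31790), a glucosyltransferase, had 1.72 and 2.75 CPM in dark leaves, against 32.01 and 34.3 CPM in light leaves (log2 -3.89, SE 0.29, adjusted p = 4.73e-10), and IPMI2 (AT2G43100), an isopropylmalate isomerase subunit of the chain elongation, had 0.0674 and 0.0775 CPM in dark leaves, against 11.6 and 9.36 CPM in light leaves (log2 -7.10, SE 0.94, adjusted p = 1.44e-06). Indolic glucosinolate and camalexin genes fell in 5 of 10 cases and 1 rose, with a median of -0.14 in dark replicate 1 and -3.78 in dark replicate 2. By over 1 on the log2 scale, 7 of the 10 were higher in replicate 1 and 1 in replicate 2. CYP79B3 (AT2G22330), which turns tryptophan into its oxime, had 1.28 and 1.86 CPM in dark leaves, against 49.2 and 64.6 CPM in light leaves (log2 -5.18, SE 0.72, adjusted p = 2.77e-06), and its paralog CYP79B2 had 65.1 and 0.62 CPM in dark leaves, against 16.9 and 14.8 CPM in light leaves and did not pass. MYB34 (AT5G60890), an activator of the pathway, had 0.135 and 0.465 CPM in dark leaves, against 7.44 and 7.57 CPM in light leaves (log2 -4.65, SE 0.60, adjusted p = 8.59e-07), and CYP83B1 (AT4G31500) fell by log2 -2.33, SE 0.60. The 1 that rose was CYP71A12, with 91.8 and 0.31 CPM in dark leaves, against 1.498 and 1.94 CPM in light leaves, so its rise lay in replicate 1.

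Genes of alternative respiration rose in 6 of 12 cases and fell in 1, with a median of 1.11 in dark replicate 1 and 0.08 in dark replicate 2. By over 1 on the log2 scale, 8 members were higher in replicate 1 and 2 in replicate 2. NDA1 (AT1G07180), an internal NADH dehydrogenase that bypasses complex I and is known to be light-regulated, had 3.40 and 7.71 CPM in dark leaves, against 197 and 226 CPM in light leaves (log2 -5.25, SE 0.42, adjusted p = 1.29e-09). AOX1D (AT1G32350), an alternative oxidase, had 735 and 7.44 CPM in dark leaves, against 2.64 and 3.96 CPM in light leaves (log2 6.82, SE 1.92, adjusted p = 0.00398), and without dark replicate 1 its log2 was 1.197 (adjusted p = 0.581). UGT74E2 (AT1G05680), a glucosyltransferase used as a marker of mitochondrial stress, had 19.96 and 2.60 CPM in dark leaves, against 0.0545 and 0.0373 CPM in light leaves. Oxidative stress genes were split, with 4 risen and 3 fallen of 14 (median 1.92 in replicate 1 and -1.04 in replicate 2). CAT3 (AT1G20620), a catalase, had 24559.8 and 26755 CPM in dark leaves, against 972 and 649.7 CPM in light leaves (log2 4.98, SE 0.44, adjusted p = 4.61e-09), the highest dark levels among the genes named. CAT1 (AT1G20630), a second catalase, had 614 and 72.3 CPM in dark leaves, against 20.5 and 30.5 CPM in light leaves (log2 3.75, SE 0.53, adjusted p = 3.16e-06), and FSD1 (AT4G25100), the iron superoxide dismutase, had 34.7 and 114 CPM in dark leaves, against 747 and 446 CPM in light leaves (log2 -3.002, SE 0.61, adjusted p = 0.000221).

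Cell wall loosening held 8 falls and 2 rises among 12 genes (median log2 -5.02). EXPA8 (AT2G40610), an expansin, had 0.101 and 2.05 CPM in dark leaves, against 250 and 231 CPM in light leaves (log2 -7.83, SE 0.95, adjusted p = 4.22e-07). EXPA1 (AT1G69530) had 4.21 and 9.34 CPM in dark leaves, against 659 and 574 CPM in light leaves (log2 -6.51, SE 0.74, adjusted p = 1.86e-07), and EXPA5 (AT3G29030) fell by log2 -7.63, SE 0.88. XTH24 (AT4G30270), a xyloglucan endotransglucosylase/hydrolase, rose, with 1668 and 3310.3 CPM in dark leaves, against 23.95 and 78.4 CPM in light leaves (log2 5.61, SE 0.63, adjusted p = 1.46e-07).

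Largest changes were ranked among genes that passed, reached 20 CPM in the higher group and held at least 10 counts over the lower group. Genes with fewer counts there were not ranked. Both dark libraries also had to lie outside the light range. By this rule the 5 largest rises were DIN2, GLYI4, BGLU46, THA1 and GLYI7. GLYI4 (AT1G15380), of the glyoxalase I family, had 1663 and 1008 CPM in dark leaves, against 0 and 0.522 CPM in light leaves (log2 12.47, SE 1.35, adjusted p = 1.26e-07). GLYI7 (AT1G80160), of the same family, had 1386 and 615 CPM in dark leaves, against 0.218 and 0.709 CPM in light leaves (log2 11.14, SE 1.31, adjusted p = 2.73e-07). BGLU46 (AT1G61820), a beta-glucosidase, had 1562 and 0.31 CPM in dark leaves, against 0.109 and 0.224 CPM in light leaves (log2 12.22), and without dark replicate 1 its log2 was 0.94 (adjusted p = 0.697). The 5 largest falls were PR2, PCC1, AT1G65490, XTH7 and EXPA8. PCC1 (AT3G22231), a gene controlled by pathogens and the clock, had 0.0674 and 0.504 CPM in dark leaves, against 79.03 and 73.8 CPM in light leaves (log2 -8.09, SE 2.57, adjusted p = 0.00946), with an adjusted p of 0.0733 without dark replicate 1. AT1G65490, of unknown function, had 0.438 and 0.698 CPM in dark leaves, against 172 and 102 CPM in light leaves (log2 -7.91, SE 0.81, adjusted p = 4.3e-08), and XTH7 (AT4G37800) had 0.101 and 1.32 CPM in dark leaves, against 179.9 and 141 CPM in light leaves (log2 -7.86, SE 0.88, adjusted p = 1.36e-07). The light levels of PR2 and PCC1 varied between genotypes and libraries. PR2 had 6.05 and 1.495 CPM in WT light leaves and 102 and 0.937 CPM in hml1-2 light leaves. PCC1 had 16.5 and 2.60 CPM in WT light leaves and 87.5 and 11.3 CPM in hml1-2 light leaves. Neither of them passed as changed in WT or in hml1-2, while AT1G65490, XTH7 and EXPA8 fell in both.

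Among genes of at least 20 CPM, the largest differences between the 2 dark libraries were uneven in direction. Of 7939 genes that averaged 20 CPM or more over the 4 libraries, 491 were over 2 log2 units higher in replicate 1 and 115 over 2 units higher in replicate 2. By the same measure 26 genes differed between the ivd1-2 light libraries, 126 between the WT dark libraries and 138 between the hml1-2 dark libraries, in either direction. At over 1 log2 unit the 2 directions were nearly even, with 1062 genes higher in replicate 1 and 1044 higher in replicate 2. Over all 19457 genes, 7336 were higher in replicate 1 by any amount. By over 1 log2 unit 3069 of them were higher in replicate 1 and 3361 of all genes in replicate 2. One library against one has no replicate check, so these are values without a test.

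The 5 genes with the largest excess in replicate 1 were GSTU3, BAP2, BGLU46, ZF14 and DIN11. GSTU3 (AT2G29470), a glutathione S-transferase, had 575 and 0.0388 CPM in dark leaves, against 1.498 and 0.597 CPM in light leaves. BAP2 (AT2G45760), an inhibitor of cell death, had 295 and 0 CPM in dark leaves, against 1.09 and 3.96 CPM in light leaves. ZF14 (AT1G58340), a MATE efflux protein, had 417 and 0.0388 CPM in dark leaves, against 0.354 and 0.112 CPM in light leaves. In dark replicate 2 and in both light libraries each of these stayed under 4 CPM. The 5 with the largest excess in replicate 2 were AT3G16670, ELP, AT2G15020, BBX16 and NdhM. AT3G16670, of the pollen Ole e 1 protein family, had 1.01 and 54.8 CPM in dark leaves, against 3.54 and 37.98 CPM in light leaves. ELP (AT1G12090), an extensin-like protein, had 1.92 and 78.4 CPM in dark leaves, against 119 and 76.7 CPM in light leaves, and AT2G15020, of unknown function, had 0.135 and 6.55 CPM in dark leaves, against 119 and 122 CPM in light leaves. BBX16 (AT1G73870), a B-box protein, had 0.0674 and 2.87 CPM in dark leaves, against 143 and 150.1 CPM in light leaves, and NdhM (AT4G37925), a subunit of the plastid NDH complex, had 0 and 1.32 CPM in dark leaves, against 111 and 141 CPM in light leaves. For AT2G15020, BBX16 and NdhM both dark libraries lay far below both light libraries, and for AT3G16670 and ELP dark replicate 2 lay near the light libraries or above them.

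Whether the response was particular to ivd1-2 was tested as the difference between its change and the change in another genotype. Against WT, 880 genes passed (4.52%), with the change in ivd1-2 above that in WT for 509 (2.62%) and below it for 371 (1.91%). Against hml1-2, 704 genes passed (3.62%), 421 above (2.16%) and 283 below (1.45%). Both tests use the same 4 ivd1-2 libraries. Of the 509 genes above WT, 232 rose in ivd1-2, 162 did not pass there and 115 fell. For 376 of the 509 and for 304 of the 371, dark replicate 1 was the library further in the direction of the difference. Without dark replicate 1 the test called 335 genes above and 124 below WT, of which 203 and 107 were among those called with it, and without dark replicate 2 it called 2460 above and 1303 below. Of the 23 named differences from WT 6 passed without dark replicate 1, and of the 20 from hml1-2 4 did. In a fit of only the groups compared, edgeR called 0 genes in either direction for both genotypes, with 1280 above and 1092 below WT and 920 above and 663 below hml1-2 at an unadjusted p under 0.05. DESeq2's test called 1161 above and 607 below WT, and 1015 above and 486 below hml1-2.

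**Figure D5:**
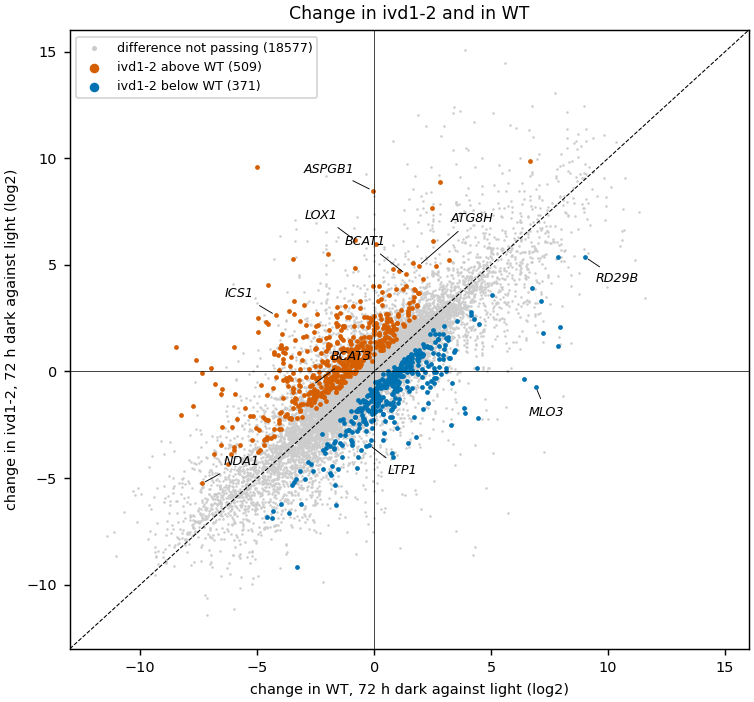
Change from light to darkness (log2, fitted) of every tested gene in ivd1-2 against the change in WT; points are genes, coloured where the difference between the 2 changes passed (509 above and 371 below), and the line marks equal change. MLO3 lies far below the line, with a log2 change of -0.72 in ivd1-2 and 6.91 in WT.

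A difference that passed in both comparisons and with each library left out in turn was that of MLO3 (AT3G45290), a membrane protein of the MLO family. MLO3 had 1.58 and 4.46 CPM in dark leaves, against 5.23 and 4.63 CPM in light leaves in ivd1-2 and did not pass there (adjusted p = 0.244). It had 446 and 584 CPM in WT dark leaves, against 3.25 and 5.35 CPM in WT light leaves, and 556 and 577 CPM in hml1-2 dark leaves, against 6.84 and 4.83 CPM in hml1-2 light leaves. The change in ivd1-2 lay below that in WT (log2 -7.62, SE 0.79, adjusted p = 1.94e-05) and in hml1-2 (log2 -7.31, SE 0.79, adjusted p = 4.65e-05). In the fit of only the groups compared it did not pass, with a log2 of -7.50 from WT (adjusted p = 0.203) and -7.22 from hml1-2 (adjusted p = 0.236). MLO3 is the neighbour of IVD: on chromosome 3 of TAIR10.1, MLO3 runs from 16617398 to 16621370 on the plus strand and IVD from 16621452 to 16625043 on the minus strand, so the genes end towards each other with 81 bases between them. No strand setting of the counting is known here, so reads that run past the end of one gene into the other cannot be told apart from that gene's own.

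BCAT3 (AT3G49680), the plastid aminotransferase of branched-chain amino acid synthesis, also passed in both comparisons with each library left out. It had 25.2 and 29.7 CPM in dark leaves, against 45.5 and 40.4 CPM in light leaves in ivd1-2 (log2 -0.64, SE 0.21, adjusted p = 0.0109). It had 9.12 and 9.50 CPM in WT dark leaves, against 59.2 and 56.4 CPM in WT light leaves, and 7.94 and 8.22 CPM in hml1-2 dark leaves, against 46.4 and 59.6 CPM in hml1-2 light leaves. The fall was thus shallower in ivd1-2 than in WT (log2 1.99, SE 0.30, adjusted p = 0.000794) and in hml1-2 (log2 2.07, SE 0.30, adjusted p = 0.000793). OMR1 (AT3G10050), the threonine deaminase at the head of isoleucine synthesis, had 10.5 and 14.4 CPM in dark leaves, against 32.5 and 27.6 CPM in light leaves in ivd1-2. It had 4.41 and 5.97 CPM in WT dark leaves, against 35.96 and 34.7 CPM in WT light leaves (log2 1.49, SE 0.42, adjusted p = 0.0471). This difference passed without dark replicate 1 as well (log2 1.74) but not without certain other libraries, with 1.41 without WT dark replicate 1.

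LTP1 (AT2G38540), a lipid transfer protein of the epidermis, fell in ivd1-2, with 49.96 and 38.1 CPM in dark leaves, against 623 and 331 CPM in light leaves (log2 -3.44, SE 0.44, adjusted p = 8.69e-07). It had 556 and 296 CPM in WT dark leaves, against 464 and 524 CPM in WT light leaves, a difference that passed with each library left out (log2 -3.23, SE 0.58, adjusted p = 0.00361). Other epidermis markers lay on the same side. All 6 fell in ivd1-2 (median log2 -2.26), all 6 fell in hml1-2 (median log2 -1.31) and 3 in WT (median log2 -0.59). The change in ivd1-2 passed as below that in WT for 3 of them and below that in hml1-2 for 1. The sum of the 6 was 456 and 418 CPM in ivd1-2 dark leaves, against 2455 and 1641 CPM in ivd1-2 light leaves. In WT it was 1705 and 968 CPM in dark leaves, against 1777 and 2210 CPM in light leaves. In hml1-2 it was 1135 and 865 CPM in dark leaves, against 2325 and 2201 CPM in light leaves. CER5, a wax exporter, and CUT1, a wax synthesis enzyme, were the other 2 below WT (log2 -1.44, adjusted p = 0.0251, and log2 -1.33, adjusted p = 0.0351), and among 7 guard cell markers KAT1, a potassium channel, was below WT too (log2 -2.64, adjusted p = 0.0264). For CER5, CUT1 and KAT1 no values with a library left out are given here. No difference from WT, that of LTP1 included, passed in the fit of only the groups compared. The part of a changed share of epidermis in the other results was not tested.

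Several members of the amino acid, starvation, autophagy and transporter lists passed above WT, and none of the 5 genes given next passed without dark replicate 1. BCAT1 was above WT (log2 3.22, SE 0.90, adjusted p = 0.0437) and above hml1-2 (log2 3.90, SE 0.91, adjusted p = 0.0231), and without dark replicate 1 the difference was 0.69 from WT and 1.37 from hml1-2. GABA-T (AT3G22200), the aminotransferase of the GABA shunt, had 429 and 197 CPM in dark leaves, against 31.5 and 39.6 CPM in light leaves in ivd1-2. It had 118 and 119 CPM in WT dark leaves, against 32.5 and 34.1 CPM in WT light leaves (log2 1.31, SE 0.36, adjusted p = 0.0415), and the difference was 0.67 without dark replicate 1. DIN9 had 14.4 and 34 CPM in WT dark leaves, against 3.83 and 4.70 CPM in WT light leaves (log2 3.62, SE 0.85, adjusted p = 0.0204), against the 393 and 54.9 CPM given above for ivd1-2 dark leaves, and the difference was 1.62 without dark replicate 1. ATG8H (AT3G06420), an autophagosome protein, had 546 and 35.97 CPM in dark leaves, against 8.12 and 10.6 CPM in light leaves in ivd1-2. It had 20.4 and 19.2 CPM in WT dark leaves, against 4.06 and 6.55 CPM in WT light leaves (log2 3.06, SE 0.87, adjusted p = 0.0489), and without dark replicate 1 the difference was 0.07. SWEET2 (AT3G14770), a vacuolar sugar transporter, had 392 and 133 CPM in dark leaves, against 70.99 and 132 CPM in light leaves in ivd1-2. It had 39.7 and 51.5 CPM in WT dark leaves, against 113 and 159.5 CPM in WT light leaves (log2 2.95, SE 0.69, adjusted p = 0.0203), so that it was lower in dark than in light WT leaves, and the difference was 1.998 without dark replicate 1. In ivd1-2 dark replicate 2 lay beside the higher light library.

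The largest differences above WT did not pass without dark replicate 1. ASPGB1 (AT3G16150), an asparaginase, had 131 and 3.72 CPM in dark leaves, against 0.245 and 0.112 CPM in light leaves in ivd1-2. It had 0.289 and 0.0785 CPM in WT dark leaves, against 0.202 and 0.179 CPM in WT light leaves (log2 8.55, SE 1.74, adjusted p = 0.00924), and the difference was 4.41 without dark replicate 1. LOX1 (AT1G55020), a lipoxygenase, had 1395 and 8.49 CPM in dark leaves, against 10.8 and 9.07 CPM in light leaves in ivd1-2. It had 9.44 and 4.75 CPM in WT dark leaves, against 13.7 and 11.04 CPM in WT light leaves (log2 6.95, SE 1.55, adjusted p = 0.0152), and the difference was 0.61 without dark replicate 1. ICS1 had 1.36 and 0.628 CPM in WT dark leaves, against 19.5 and 17.35 CPM in WT light leaves, and its difference of 6.85 turned to -0.63 without that library. RIPK (AT2G05940), a receptor-like cytoplasmic kinase of defence, had 233 and 0.271 CPM in dark leaves, against 18.7 and 27.8 CPM in light leaves in ivd1-2, and its difference of 6.96 from WT turned to -1.74. AT1G04490, of a family with a domain of unknown function, turned from 8.72 with both libraries to -3.58 without replicate 1.

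Some other differences from WT or hml1-2 held without dark replicate 1, though those of RD29B and NDA1 did not pass without certain other libraries. The difference of RD29B was -2.76 without ivd1-2 light replicate 2, and that of NDA1 was 1.92 without WT dark replicate 1. RD29B (AT5G52300), a late abscisate response gene, had 10.99 and 25.6 CPM in dark leaves, against 0.245 and 0.671 CPM in light leaves in ivd1-2. It had 155 and 125 CPM in WT dark leaves, against 0.126 and 0.419 CPM in WT light leaves (log2 -3.66, SE 0.78, adjusted p = 0.0116), and the difference without dark replicate 1 was -3.14. EXO70H2 (AT2G39380), an exocyst subunit, had 2.60 and 4.57 CPM in dark leaves, against 2.78 and 1.75 CPM in light leaves in ivd1-2. It had 22.3 and 22.7 CPM in hml1-2 dark leaves, against 2.37 and 1.58 CPM in hml1-2 light leaves (log2 -2.85, SE 0.39, adjusted p = 0.000459), and passed with each library left out. NDA1 fell less in ivd1-2 than in WT, where it had 1.32 and 2.003 CPM in WT dark leaves, against 269 and 275 CPM in WT light leaves (log2 2.098, SE 0.53, adjusted p = 0.028), and passed without dark replicate 1 too (log2 2.60). TLL1 (AT1G45201), a triacylglycerol lipase-like protein, had 0.337 and 0.543 CPM in dark leaves, against 35.7 and 29.7 CPM in light leaves in ivd1-2 and 2.48 and 7.85 CPM in WT dark leaves, against 48.3 and 42.4 CPM in WT light leaves (log2 -3.08, SE 0.75, adjusted p = 0.0232), and did not pass without dark replicate 1 (log2 -2.74).

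Markers of other tissues were read as a check on the leaf label, to which the levels of RCA above belong. Xylem markers fell, 4 of 4 (median log2 -5.47, or -5.08 with VND7, which had no counts in dark leaves, at its bound), and their sum was 0.135 and 0.504 CPM in dark leaves, against 9.94 and 15.1 CPM in light leaves. Of 6 phloem markers 1 rose and none fell, but 4 fell with dark replicate 1 as the only dark library and none with dark replicate 2. Their median was -1.46 in replicate 1 and 0.14 in replicate 2, and 5 of the 6 were higher in replicate 2 by over 1 on the log2 scale. Guard cell markers had 1 rise and 3 falls among 7, led by TGG1, a myrosinase, with 42.3 and 70.05 CPM in dark leaves, against 2648 and 2029 CPM in light leaves. The root markers CASP1 and RHD6 and the flower markers AP1, AP3, LFY and FT did not pass the filter on low counts. The root list still held 4 tested members of 6, of which 1 rose and 2 fell. Of the 7 flower markers 3 were tested and 2 rose. These 2 lists were thus not silent in dark leaves, and values of CASP2 and PI are given among the other observations.

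The 250 bases before the start of each gene were searched on both strands for short motifs, as a description. The G-box CACGTG, bound by bHLH and bZIP factors, was in 9.21% of the promoters of genes that rose and 6.9% of those that fell, against 7.49% of all genes tested. The evening element AAAATATCT, bound by clock factors of the MYB type, was in 3.13% of those that rose and 2.09% of those that fell, against 2.51% of all. The W-box TTGACC or TTGACT, bound by WRKY factors, was in 28.5% and 26%, against 28.2% of all. GATAAG was in 14.5% of genes that rose and 12% of those that fell, against 12.6% of all, and TGACG in 20.3% and 18.9%, against 19.4%. Of the 179 genes that rose with dark replicate 1 and fell with dark replicate 2, 31.8% held the W-box, 21.8% TGACG, 8.94% GATAAG, 5.59% CACGTG and 2.79% the evening element. Only GATAAG and CACGTG exceeded the share of all genes by over 1 percentage point in genes that rose. The promoters of CAO and PRR5 are shown because these genes moved the same way in both dark libraries and carry such a motif, 1 for chlorophyll synthesis and 1 for the clock. The sequences are from TAIR10.1, both on the minus strand and written 5′ to 3′, and capitals mark the motifs. The window of CAO lies at chr1:16851272-16851521 and that of PRR5 at chr5:8358547-8358796.
CAO: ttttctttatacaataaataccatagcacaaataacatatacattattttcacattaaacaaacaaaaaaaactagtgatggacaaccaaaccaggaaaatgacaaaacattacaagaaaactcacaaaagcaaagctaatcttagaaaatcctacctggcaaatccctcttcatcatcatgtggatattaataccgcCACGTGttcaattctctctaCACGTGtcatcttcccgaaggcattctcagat
PRR5: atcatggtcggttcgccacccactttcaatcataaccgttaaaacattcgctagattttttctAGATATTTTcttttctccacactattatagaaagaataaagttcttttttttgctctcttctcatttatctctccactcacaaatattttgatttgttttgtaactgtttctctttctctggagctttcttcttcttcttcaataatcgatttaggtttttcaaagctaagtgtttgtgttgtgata
CAO, which fell, holds 2 copies of CACGTG, and the capitals in PRR5 are the reverse complement of the evening element.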

How the data were processed

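The deposited values are raw read counts per gene for 36 libraries, per the file contents, with no normalization. Per the submitters' processing notes, the tools were HTSeq (no version), Cuffdiff 2.1.1, TopHat 1.4.1, Trimmomatic 0.30 and SAMtools 0.1.19, with the build TAIR10. The strand setting of the counting is not stated in them. The labels give barcodes but no run or date, so no batch could be tested. Locus codes (28774) were matched to TAIR10.1 for names, neighbours and promoters, and 28009 matched. Reads in no gene or in several genes stayed out of library sizes and tests and made up 1.13 and 1.28% (no gene) and 2.33 and 2.25% (several genes) of reads in ivd1-2 dark libraries, against 0.653 and 0.762% and 1.87 and 1.80% in light libraries.

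The analysis ran in R 4.3.3 (edgeR 4.0.16, limma 3.58.1). Genes were kept by filterByExpr (minimum count 10, minimum total 15), which left 19457 genes and removed 0.0119% of counts. After TMM scaling, all 36 libraries entered a single fit with 18 groups and 18 residual degrees of freedom, and each contrast was tested by the quasi-likelihood method of edgeR. Benjamini-Hochberg adjustment covered all tested genes, and an adjusted p under 0.05 counted as passing. Log2 CPM used a prior count of 2, and an SE is the log2 change divided by the square root of F. The steps were tested on simulated data in which every group had the same spread. Since the ivd1-2 dark libraries differed more than those of other groups, that test does not cover the calls made here.

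The 31 gene lists and 6 marker lists, and the comparison itself, were chosen with earlier results of these data known, and no list was tested as a set. LYSOX was dropped from its list because the reference gives no gene of that name. The genes named by rule are IVD and HML1, the 5 largest rises and falls, the 3 members of each list with the smallest p, the 5 largest differences between the dark libraries each way, and for the differences from WT and hml1-2 the 5 largest each way and up to 3 members of each list. All other genes named were picked after their values were seen, as were the 2 promoters, which were read from the genome sequence.

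Alternatives were DESeq2 1.42.0 size factors, DESeq2's own test, no filter, a mean of at least 5 CPM, only the groups compared, only the 12 ivd1-2 libraries, the replicate number as a block, and each library left out. A block with the 2 dark ivd1-2 numbers crossed was added after seeing the data.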

Additional observations from a re-analysis of the deposited data

Results flagged for a closer look

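The results here are those where the change from light to darkness in ivd1-2 differed from that in another genotype by edgeR's test of the difference itself (adjusted p under 0.05), and shares of reads outside the gene counts. Each difference is on the log2 scale, ivd1-2 minus the other genotype. Without dark replicate 1 the differences that passed were those of BCAT3, LTP1, MLO3, NDA1, OMR1 and RD29B from WT and of BAM3, BCAT3, EXO70H2 and MLO3 from hml1-2. Only BCAT3, LTP1 and MLO3 from WT, and BCAT3, EXO70H2 and MLO3 from hml1-2, passed with each library left out in turn. In a fit of only the groups compared none of the differences given here passed.

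In amino acid metabolism BCAT1 differed by 3.22 from WT and 3.90 from hml1-2, GABA-T by 1.31 and 1.54, and GDH2 by 2.27 from hml1-2. BCAT3 differed by 1.99 from WT and 2.07 from hml1-2, and OMR1 by 1.49 from WT. Among starvation and autophagy genes DIN9 differed by 3.62 and 3.69, SIS3, named for insensitivity to sugar, by 0.61 from WT, ATG12B by 1.12 and 1.204, and ATG8H by 3.06 and 3.17. Without dark replicate 1 the difference was 0.69 from WT and 1.37 from hml1-2 for BCAT1, 0.67 and 0.90 for GABA-T, 1.62 and 1.70 for DIN9, and 0.07 and 0.19 for ATG8H. It was 1.64 from hml1-2 for GDH2, 0.59 from WT for SIS3, and 1.04 and 1.13 for ATG12B. For ATG12B the level was 2.60 and 2.25 CPM in dark leaves, against 2.59 and 2.24 CPM in light leaves in ivd1-2, and it had 1.07 and 1.34 CPM in WT dark leaves, against 2.75 and 2.48 CPM in WT light leaves.

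BAM3 differed by -1.41 from hml1-2, ICS1 by 6.85 from WT and 6.64 from hml1-2, and RD29B by -3.66 from WT. UGT78D2, a flavonoid glucosyltransferase, differed by 1.44 from WT and 1.43 from hml1-2, and C4H, the cinnamate hydroxylase, by 1.35 from WT. NDA1 differed by 2.098 from WT, TSO2, a small subunit of ribonucleotide reductase, by -1.98 from WT, and SWEET2 by 2.95 from WT and 2.49 from hml1-2. Without dark replicate 1 the difference was -0.63 from WT and -0.85 from hml1-2 for ICS1, 1.42 and 1.41 for UGT78D2, 1.998 and 1.54 for SWEET2, 0.87 from WT for C4H, and -2.10 from WT for TSO2.

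Among the largest differences above WT were AT1G04490 (8.72), ASPGB1 (8.55), RIPK (6.96) and LOX1 (6.95), and among those below MLO3 (-7.62), LTP1 (-3.23), AT5G48900 (-3.14), of the pectin lyase-like family, and TLL1 (-3.08). Above hml1-2 stood ASPGB1 (7.16), LOX1 (6.96), RIPK (6.91) and AT2G25460 (6.62). Below hml1-2 stood MLO3 (-7.31), CYP71B13 (-3.28), TLL1 (-2.96), EXO70H2 (-2.85) and RLP19 (-2.70), a receptor-like protein. Without dark replicate 1 the difference from WT was -3.58 for AT1G04490, 4.41 for ASPGB1, -1.74 for RIPK, 0.61 for LOX1, -2.82 for AT5G48900 and -2.74 for TLL1. That from hml1-2 was then 3.05 for ASPGB1, 0.62 for LOX1, -1.79 for RIPK, 2.99 for AT2G25460, -2.80 for CYP71B13, -2.62 for TLL1 and -2.71 for RLP19.

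Reads in no annotated gene made up 1.1345% of dark replicate 1 and 1.2806% of dark replicate 2, against 0.653 and 0.762% in the ivd1-2 light libraries. Reads in more than 1 gene made up 2.3303 and 2.2520% in dark leaves, against 1.87 and 1.80% in light leaves.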

How the results depend on the processing

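The counts of genes that rose or fell in ivd1-2 stayed within 1.5 times of 6174 and 6239 except in a fit of only the groups compared, which called 2484 and 4020 (38.2% of its calls rose, against 49.7%); leaving out each library gave 5284 to 5984 risen and 5313 to 6686 fallen. A filter of 5 CPM moved the median log2 of all genes to 0.17 and the fit of only the groups compared to -0.10. The counts of differences moved far more. Leaving out each library in turn gave 147 to 2460 genes above and 76 to 1303 below WT, and 71 to 2472 above and 55 to 1338 below hml1-2. The fit of only the groups compared called 0 in each direction by edgeR (1280, 1092, 920 and 663 at an unadjusted p under 0.05). DESeq2's test called 1161 above and 607 below WT, and 1015 above and 486 below hml1-2, and no filter gave 224 below WT and 170 below hml1-2. The replicate numbers were not taken to pair the samples, since the deviations of dark and light libraries differed in sign between genotypes. They correlated at 0.24 in WT and 0.47 in hml1-2 but at -0.14 in ivd1-2. On the second principal component replicate 1 lay above replicate 2 in 5 of these 6 groups, all but ivd1-2 light leaves. In the rest of the series the same order held except in ivd1-2 at 6 h and 24 h of darkness. The part of such a replicate effect in the split of the dark libraries was not tested. With the replicate number as a block 891 genes were above and 867 below WT, and 764 above and 719 below hml1-2. With the 2 dark ivd1-2 numbers crossed, a setting added after seeing the data, these counts were 759, 680, 655 and 548. Of 101 results for single genes in ivd1-2, 92 kept direction and call under every alternative run; the 9 others were HML1, BGLU46, PR2, PCC1, AED1, JAZ9, CYP83B1, AOX1D and CAT1. Of 74 counts of list members that rose or fell, 37 moved past 1.5 times under some alternative, 24 of them when a library was left out. HML1 changed sign around 0, with 0.052 under DESeq2 size factors, 0.0066 with no filter, 0.014 in the 12 ivd1-2 libraries, 0.053 by DESeq2's test and -0.078 to 0.10 over libraries left out. Over libraries left out, the difference of ICS1 ran from -0.63 to 8.08 for WT and -0.85 to 8.01 for hml1-2, that of RIPK from -1.74 to 8.40 for WT and -1.79 to 8.11 for hml1-2, and that of AT1G04490 from -3.58 to 12.22 for WT. Without dark replicate 1 the ICS1, RIPK and AT1G04490 differences were the negative ones; the cause was not tested.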

Other observations

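Counts for further gene lists in ivd1-2 dark leaves follow. Over all genes tested 31.7% rose and 32.1% fell, so that 63.8% passed, and several of these lists lay near or below that share. DNA replication fell in 11 of 14 genes and rose in 1 (median log2 -3.66): MCM7 (AT4G02060), a subunit of the replicative helicase, had 0.202 and 0.155 CPM in dark leaves, against 8.20 and 6.57 CPM in light leaves (log2 -5.33, SE 0.56, adjusted p = 5.61e-08), and MCM4 (AT2G16440) had 0.337 and 0.698 CPM in dark leaves, against 7.001 and 5.11 CPM in light leaves (log2 -3.55, SE 0.47, adjusted p = 1.22e-06). Cytosolic ribosome genes fell in 9 of 16 cases and rose in 1 (median log2 -0.94), with RPL23A (AT2G39460) at 27.7 and 39.4 CPM in dark leaves, against 136 and 103 CPM in light leaves (log2 -1.83, SE 0.21, adjusted p = 2.2e-07). Flavonoid genes fell in 7 of 11 cases and rose in 1. PAL2 (AT3G53260), a phenylalanine ammonia-lyase, had 24.95 and 17.44 CPM in dark leaves, against 227 and 279 CPM in light leaves (log2 -3.58, SE 0.41, adjusted p = 1.83e-07), and CHS (AT5G13930), the chalcone synthase, had 0 and 0.775 CPM in dark leaves, against 95.6 and 34.2 CPM in light leaves.

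Among sugar and amino acid transporters 7 of 15 rose and 1 fell. STP1 (AT1G11260), a hexose importer of the plasma membrane, had 1958 and 3335 CPM in dark leaves, against 429 and 381 CPM in light leaves (log2 2.71, SE 0.38, adjusted p = 3.04e-06), SWEET12 (AT5G23660), a sucrose exporter, had 35.2 and 161 CPM in dark leaves, against 4.14 and 10.9 CPM in light leaves (log2 3.71, SE 0.69, adjusted p = 9.44e-05), and AAP3 (AT1G77380), an amino acid permease, had 3.51 and 4.34 CPM in dark leaves, against 0 and 0.149 CPM in light leaves. Ethylene and cytokinin genes rose in 3 of 13 cases and fell in 6. ACS2 (AT1G01480), which makes the precursor of ethylene, had 243 and 14.7 CPM in dark leaves, against 0.218 and 0.261 CPM in light leaves (log2 9.05, SE 1.83, adjusted p = 0.000234), while ARR15 (AT1G74890), a cytokinin-induced response regulator, had 0.135 and 0.0388 CPM in dark leaves, against 6.21 and 5.11 CPM in light leaves (log2 -5.92, SE 0.93, adjusted p = 1.15e-05). None of 6 heat shock genes tested passed edgeR's test, and all 6 were higher in dark replicate 1 by over 1 on the log2 scale. The list median was 1.24 in replicate 1 and -1.73 in replicate 2. HSP70 had 138 and 49.8 CPM in dark leaves, against 13.8 and 33.95 CPM in light leaves.

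Of 4 root markers tested 1 rose and 2 fell. The 1 that rose was CASP2, which marks the Casparian strip of roots and had 16.4 and 60.6 CPM in dark leaves, against 0.136 and 0.224 CPM in light leaves (log2 7.74, SE 0.99, adjusted p = 8.1e-07). SCR (log2 -1.55, SE 0.21, adjusted p = 2.25e-06) and SHR (log2 -3.03, SE 0.36, adjusted p = 2.84e-07), factors of the root endodermis, fell. Of the flower markers PI, a floral organ identity factor, had 14.6 and 6.94 CPM in dark leaves, against 0.0545 and 0.0373 CPM in light leaves. CASP2 changed by log2 6.71 in WT and 6.31 in hml1-2, and PI by 5.91 and 8.12, and neither difference from ivd1-2 passed.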
